A study of Mus musculus with 6 samples.

Results

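The regulators of G protein signalling (RGS) were examined in LSKs, the lineage-negative, Sca1-positive and c-Kit-positive BM cells that include HSPCs. The members were a list of gene symbols, chosen with earlier results of these data known. They were *Rgs1*, *Rgs2*, *Rgs3*, *Rgs10*, *Rgs12*, *Rgs14*, *Rgs16*, *Rgs18* and *Rgs19*, which are 9 of the 54532 genes in the table. All 9 were found, and the table held 12 other genes named *Rgs* with a number. LSKs were sorted from BM of *Myh9* fl/fl; no cre mice (CTRL, 3 libraries) and of *Myh9* fl/fl; *Mx1-cre* mice (cKO, 3 libraries), all C57BL/6 and all given poly I:C at 5 mg/kg. The cells were taken 4 days after the first injection, with 100000 cells sorted for a set. By the study's methods the first injection was at 5 to 6 weeks of age, and the number of doses is 2 in the sample labels and 3 in the methods. *Mx1-cre* is driven by an interferon-inducible promoter that is also active outside blood cells. Only the cKO mice carried Cre, so the effects of Cre and of the deletion cannot be told apart. The number of mice behind each cell set is not given in the sources used here, and p-values measure the spread between these sets.

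A G protein-coupled receptor switches on a heterotrimeric G protein by loading its alpha subunit with GTP. RGS proteins bind the active alpha subunit through a shared domain and speed up its GTP hydrolysis, which shortens the signal that chemokines, sphingosine 1-phosphate, thrombin and other ligands send through their receptors. In blood cells these receptors guide homing and retention in the BM niche. The members *Rgs1*, *Rgs2*, *Rgs3*, *Rgs16* and *Rgs18* belong to the R4 subfamily, *Rgs10*, *Rgs12* and *Rgs14* to the R12 subfamily, and *Rgs19* to the RZ subfamily.

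The RGS transcripts of cKO LSKs moved in opposite directions. Mean FPKM of *Rgs2* fell by 49.4% and that of *Rgs1* fell by 39.9% from the control mean. *Rgs10* fell by 19.2% and *Rgs12* fell by 19.9%, and *Rgs18* rose by 26.1%. *Rgs19*, the member with the highest level in control LSKs, and *Rgs14* did not pass the test. *Rgs3* and *Rgs16* were below 1 FPKM in both groups and were not tested. Levels are given as FPKM, which is scaled by gene length and can be compared between genes. Tests were made with limma on log2(FPKM + 1), two-sided, for every gene whose average across all libraries reached 1 FPKM, with Benjamini-Hochberg adjustment over all 11552 genes tested. Called genes have an adjusted p under 0.05, fold changes are cKO over CTRL on that log2 scale, and errors are SD with n = 3 libraries unless stated. The added 1 shrinks the fold changes of genes near 1 FPKM, and genes of all levels are ranked on this scale.

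Of the 7 members tested, 4 were called lower and 1 higher, where 20.6% of all genes tested were called lower and 19.9% higher. In either direction 71.4% of the tested members were called, beside 40.5% of all genes tested. The median log2 fold change of the 7 was -0.25, and that of all genes tested was -0.0096. The cKO libraries lay apart from every CTRL library for the same 5 members, below for 4 and above for 1. Over all genes tested, the groups lay apart for 54%, with cKO below for 28.5% and above for 25.5%. An exact permutation test of 1 gene in 3 libraries against 3 cannot give a two-sided p below 0.1.

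**Figure D1:**
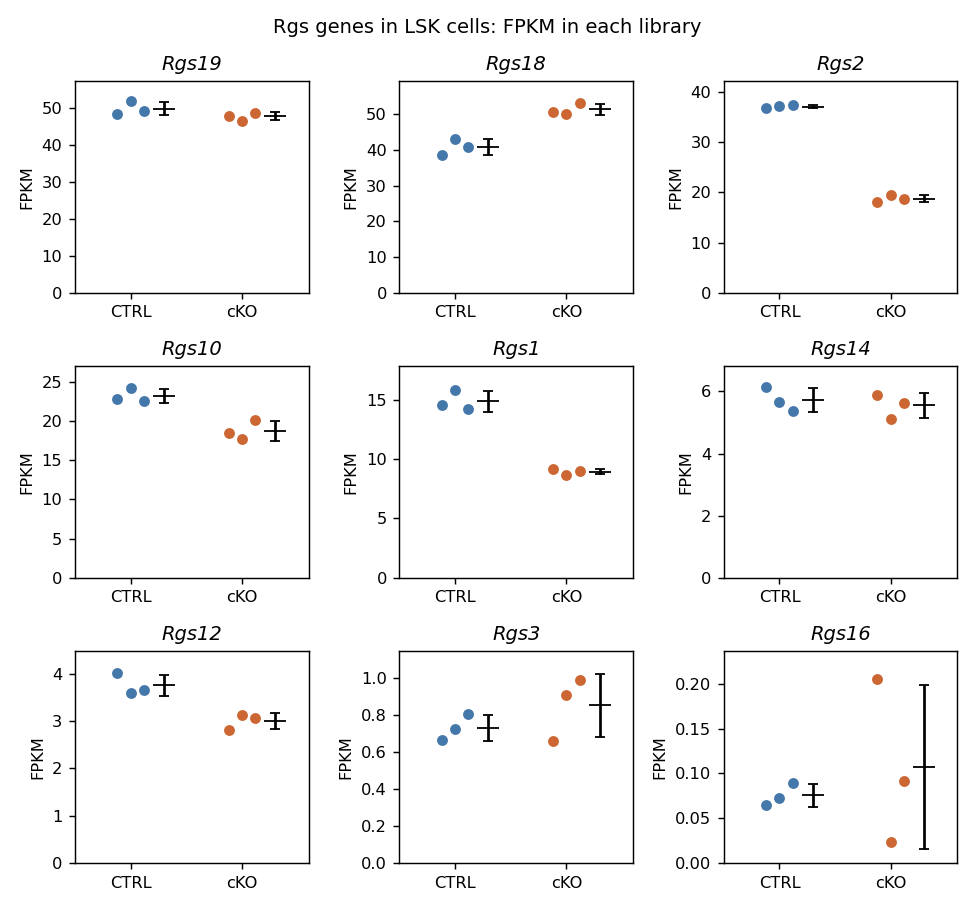
FPKM (vertical axes, each from 0) of the 9 genes in each of the 3 CTRL (blue) and 3 cKO (orange) libraries, 1 point for each library, with the mean and SD of each group as black bars. The groups lie apart for Rgs18, Rgs2, Rgs10, Rgs1 and Rgs12 and overlap for Rgs19, Rgs14, Rgs3 and Rgs16.

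The libraries were checked first. *Myh9*, the targeted gene, measured 23.0, 22.6 and 22.0 FPKM in CTRL and 18.4, 19.96 and 17.7 FPKM in cKO libraries. The groups did not overlap, and the fall over the whole gene was modest (log2 fold change -0.26, limma adjusted p = 0.00642). The floxed exon was not measured on its own. Each library held 17571544 to 19894562 reads on genes, as recovered from FPKM and gene length. *Kit* measured 23.9 ± 0.454 FPKM in CTRL and 21.5 ± 0.334 FPKM in cKO LSKs. *Ly6a*, the gene of Sca1, measured 95.4 ± 1.87 and 89.5 ± 3.63 FPKM. The lineage antigen genes *Cd3e*, *Cd4*, *Cd8a*, *Itgam* and *Ly6g* were at most 1.39 FPKM in any library. *Ptprc*, of the same list, measured 5.87 ± 0.176 FPKM in CTRL and 5.21 ± 0.0847 FPKM in cKO LSKs and was called lower.

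*Rgs2* encodes a small RGS protein with a known preference for the alpha subunits of the Gq class. Its gene lies on chromosome 1 from 143999338 to 144004161 (minus strand, mm10; ENSMUSG00000026360). The bases before its transcription start are shown because it had the largest change of the 9 genes, and those of *Rgs19* because it had the highest control level and did not pass the test. Both are the 250 bases before the start in RefSeq (GRCm38.p6), on the minus strand and written 5′ to 3′. Capitals mark TGACG, the half-site of the cyclic AMP response element, on either strand in *Rgs2*, and GAGGAAGT, the core of sites for the ETS factor PU.1, in *Rgs19*.
Rgs2, chr1:144004150-144004399: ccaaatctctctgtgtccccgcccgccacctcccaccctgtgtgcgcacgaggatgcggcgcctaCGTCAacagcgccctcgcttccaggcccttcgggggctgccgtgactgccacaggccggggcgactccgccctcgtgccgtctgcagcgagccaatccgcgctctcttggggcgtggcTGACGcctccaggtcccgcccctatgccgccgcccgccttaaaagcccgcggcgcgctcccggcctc
Rgs19, chr2:181693978-181694227: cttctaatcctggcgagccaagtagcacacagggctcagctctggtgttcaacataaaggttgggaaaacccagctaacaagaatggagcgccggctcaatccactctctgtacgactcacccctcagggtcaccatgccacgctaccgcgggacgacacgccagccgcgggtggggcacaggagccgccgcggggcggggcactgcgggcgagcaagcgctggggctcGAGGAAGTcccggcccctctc

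The *Rgs2* window is 72.4% G and C with 30 CG pairs, and the *Rgs19* window shown 64.8% with 20 pairs, where the medians over all 32851 promoter windows are 52.4% and 6 pairs. *Rgs19* has 3 windows, and those not shown are 74.8% G and C with 34 pairs and 54.4% with 4 pairs. The half-sites of *Rgs2* begin 185 and 67 bases before its start. RefSeq promoters were found for 6 of the 9 members, 10 windows in all, as some genes have several starts. Motifs were searched on both strands. TGACG, which was added after the sequences were seen and is part of the longer TGACGTCA, stood in windows of *Rgs2* and *Rgs12* and in 17.8% of all windows. TGACGTCA itself stood in none of the 10 windows and in 1.55% of all windows. GAGGAAGT stood in 3 of the 10, of *Rgs12* and *Rgs19*, and in 2.44% of all windows. The *Rgs19* matches are 1 site, which lies in overlapping windows of that gene, and other matches in these windows can likewise be shared. A form of the NF-kB site stood in 6 of the 10 windows, of *Rgs10*, *Rgs12*, *Rgs16* and *Rgs19*, and in 17.6% of all. The AP-1 site TGANTCA was found in 1 window, of *Rgs12* (6.75% of all), the GATA site AGATAA in 1, of *Rgs3* (9.99% of all), and the RUNX site TGTGGT in none of the 10 (14.05% of all). These are matches of letters in a fixed window, and binding was not measured.

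Among the R4 members, *Rgs2* measured 36.8, 37.2 and 37.3 FPKM in the 3 CTRL libraries and 17.99, 19.5 and 18.8 FPKM in the 3 cKO libraries. Every cKO library lay far below every CTRL library, and the CTRL libraries differed from each other by little (coefficient of variation 0.800%). The log2 fold change was -0.95 (SE 0.036, 95% interval -1.03 to -0.86, limma adjusted p = 1.1e-05), which was rank 100 from the lowest among the 11552 genes tested. Behind these values stood 2379 to 2653 reads in CTRL and 1222 to 1292 in cKO libraries.

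*Rgs1* (ENSMUSG00000026358, chromosome 1 from 144242296 to 144249242) encodes an RGS protein known for dampening chemokine-receptor signals in lymphocytes. It measured 14.5, 15.8 and 14.2 FPKM in CTRL and 9.13, 8.68 and 8.96 FPKM in cKO libraries. All cKO libraries lay well below the CTRL libraries. Its log2 fold change was -0.67 (SE 0.049, limma adjusted p = 1.3e-04), rank 231 from the lowest. *Rgs1* and *Rgs2* are both known as genes that cells switch on soon after a stimulus. In these libraries, of 23 immediate early genes, 20 passed the filter and 18 of these were called lower (median log2 fold change -0.85). Their summed level was 1067 to 1089 FPKM in CTRL and 565 to 579 FPKM in cKO libraries. The largest falls among them were *Atf3* (log2 fold change -2.37), *Nr4a1* (-1.81) and *Btg2* (-1.43). Neutrophil and monocyte markers moved the same way, with 10 of 11 called lower and summed levels of 10846 to 10875 FPKM in CTRL and 5995 to 6103 FPKM in cKO libraries. The largest falls there were in *Irf8*, *Csf1r* and *Ly6c2* (-1.78, -1.46 and -1.45). The part of either list in the falls of *Rgs1* and *Rgs2* was not tested. In RNA of sorted populations, fewer cells of a type and less RNA in each cell cannot be told apart.

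*Rgs18* (ENSMUSG00000026357, chromosome 1 from 144752683 to 144775435), best known from platelets and megakaryocytes, was the only one of the 7 tested members called higher. Its levels were 38.5, 43.0 and 40.7 FPKM in CTRL and 50.7, 50.2 and 53.2 FPKM in cKO libraries. The lowest cKO library lay above the highest CTRL library. The log2 fold change was 0.33 (SE 0.046, 95% interval 0.22 to 0.44, limma adjusted p = 0.00203), rank 1077 from the highest, so many genes rose by more. Of 10 megakaryocyte markers, 5 passed the filter and all 5 were called higher. *Gp9* (log2 fold change 1.14), *Itga2b* (1.09) and *Pf4* (1.07) rose most. The summed level of the 10 markers was 68.5 to 73.7 FPKM in CTRL and 143 to 150 FPKM in cKO libraries. The platelet receptor genes in this list differed. Besides *Gp9*, *Gp1ba* measured 0.927 ± 0.156 FPKM in CTRL and 1.03 ± 0.0791 FPKM in cKO LSKs and was not tested, *Gp6* was at most 0.0186 FPKM, and *Gp1bb* was listed at 0 in every library. The part of these cells in the rise of *Rgs18* was not tested.

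*Rgs3* and *Rgs16*, the remaining R4 members described, had low levels. *Rgs3* (ENSMUSG00000059810, chromosome 4) measured 0.666, 0.725 and 0.806 FPKM in CTRL and 0.662, 0.909 and 0.990 FPKM in cKO libraries. The groups overlapped, and in the fit without a filter the log2 fold change was 0.095 (95% interval -0.13 to 0.32, limma adjusted p = 0.554). Its gene is long, and 134 to 199 reads lay behind each value. *Rgs16* (ENSMUSG00000026475, chromosome 1), which other cells induce on activation, had 3, 3 and 4 reads in CTRL and 9, 1 and 4 reads in cKO libraries. No difference was detectable at this depth. Genes on the opposite strand overlap *Rgs3*, *Rgs16* and *Rgs12* at up to 0.255 FPKM, and whether reads were counted by strand is not given in the sources used here.

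**Figure D2:**
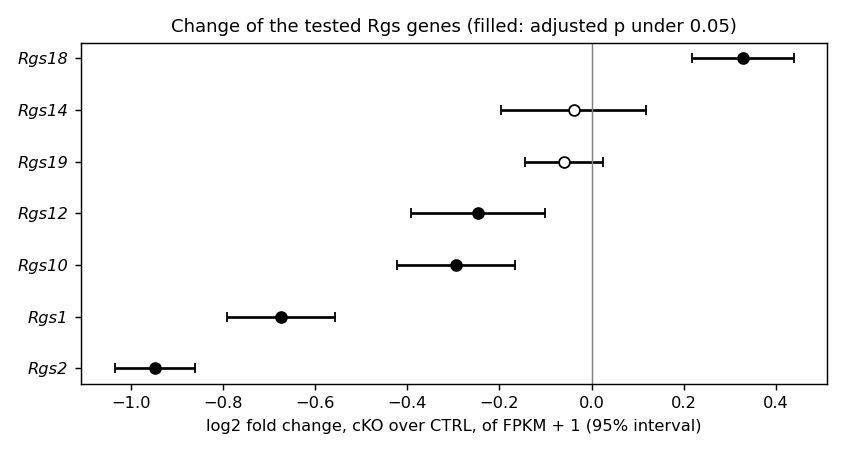
Log2 fold change, cKO over CTRL, of FPKM + 1 (horizontal axis) for the 7 tested genes, with 95% intervals from limma as bars and filled points for an adjusted p under 0.05. Rgs2 lies lowest at -0.95 and Rgs18 highest at 0.33, and the intervals of Rgs19 and Rgs14 include 0.

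The R12 members differ from the R4 members in domain content. *Rgs12* and *Rgs14* carry Ras-binding and GoLoco regions beside the RGS domain, and *Rgs12* also PDZ and PTB domains, while *Rgs10* is little more than the RGS domain. *Rgs10* (ENSMUSG00000030844, chromosome 7 from 128373621 to 128418758) measured 22.8, 24.2 and 22.5 FPKM in CTRL and 18.4, 17.7 and 20.1 FPKM in cKO libraries. The groups did not overlap, and the log2 fold change was -0.29 (SE 0.054, limma adjusted p = 0.00573). A transcript on the same strand, *Gm15503*, overlaps its gene and was at most 0.647 FPKM.

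*Rgs12* (ENSMUSG00000029101, chromosome 5 from 34949445 to 35039644) fell by a similar share at a lower level. It measured 4.01, 3.597 and 3.65 FPKM in CTRL and 2.81, 3.13 and 3.06 FPKM in cKO libraries. All cKO libraries lay below the CTRL libraries, with a log2 fold change of -0.25 (SE 0.061, limma adjusted p = 0.0189). Its call was lost in 4 of 14 alternatives. Without CTRL replicate 1 the limma adjusted p was 0.0640, without cKO replicate 1 it was 0.0565, with a replicate block it was 0.0571, and after removal of each library's trends with gene length and GC content the log2 fold change was -0.14 (limma adjusted p = 0.116). Its length in the table, 8487 bases, is the longest of the 7 tested members.

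*Rgs14* (ENSMUSG00000052087, chromosome 13 from 55369732 to 55384687) measured 6.14, 5.66 and 5.37 FPKM in CTRL and 5.89, 5.12 and 5.63 FPKM in cKO libraries. The ranges overlapped over most of their width. The log2 fold change was -0.039 (95% interval -0.20 to 0.12, limma adjusted p = 0.675).

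*Rgs19* (ENSMUSG00000002458, chromosome 2 from 181688419 to 181693977), also named GAIP after its binding to inhibitory alpha subunits, measured 48.5, 52.0 and 49.3 FPKM in CTRL and 48.0, 46.7 and 48.8 FPKM in cKO libraries. The ranges overlapped in part. The log2 fold change was -0.060 (95% interval -0.14 to 0.025, limma adjusted p = 0.224). Between 1897 and 2151 reads lay behind each value.

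The order of mean levels changed at the top only. In control LSKs it ran *Rgs19*, *Rgs18*, *Rgs2*, *Rgs10*, *Rgs1*, *Rgs14*, *Rgs12*, *Rgs3* and *Rgs16*, and the ranges of all neighbours were separate. In cKO LSKs *Rgs18* stood first and *Rgs19* second, while *Rgs2* and *Rgs10*, with means of 18.8 and 18.7 FPKM, overlapped. The other neighbours were separate. The summed level of the 9 genes was 176 ± 5.47 FPKM in CTRL and 155 ± 4.01 FPKM in cKO libraries. The mean of the sum fell by 11.9%, a smaller share than for *Rgs2* or *Rgs1* alone.

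As a share of that sum, *Rgs2* took 21.1% ± 0.585 in CTRL and 12.1% ± 0.655 in cKO LSKs. *Rgs18* took 23.1% ± 0.648 and 33.1% ± 0.189, and *Rgs1* 8.43% ± 0.260 and 5.75% ± 0.165. The share of *Rgs19* moved from 28.3% ± 0.150 to 30.8% ± 0.331, although its own level did not pass the test. The ratio of *Rgs18* to *Rgs2* within a library does not depend on how libraries are scaled to each other. It was 1.05, 1.16 and 1.09 in CTRL and 2.82, 2.57 and 2.83 in cKO libraries. *Rgs10* to *Rgs2* was 0.620, 0.650 and 0.603 in CTRL and 1.02, 0.906 and 1.07 in cKO libraries. *Rgs1* to *Rgs2* moved less, from 0.400 ± 0.0230 to 0.476 ± 0.0315. These ratios were picked after the values were seen and have no test.

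**Figure D3:**
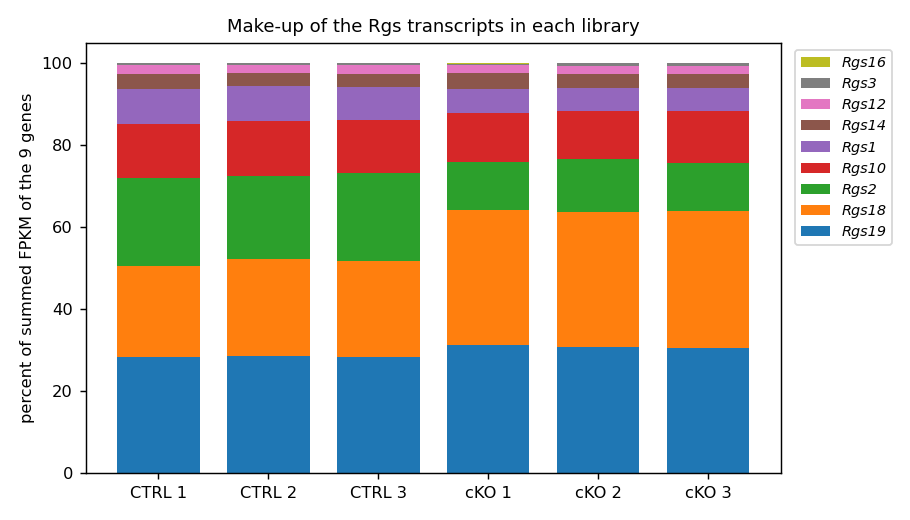
Percent of the summed FPKM of the 9 genes (vertical axis) taken by each gene in each CTRL and cKO library, stacked. Rgs18 (orange) takes 22.4% to 23.6% in CTRL and 33.0% to 33.3% in cKO libraries, and Rgs2 (green) 20.4% to 21.5% and 11.7% to 12.9%.

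The called R4 members are neighbours in the genome. *Rgs2*, *Rgs13*, *Rgs1*, *Rgs21* and *Rgs18* follow each other on the minus strand of chromosome 1 within 776 kb, with 3 other listed genes between them, pseudogenes and a small nuclear RNA gene. Within this run, *Rgs2* and *Rgs1*, 238 kb apart, fell, and *Rgs18*, 503 kb beyond *Rgs1*, rose. *Rgs13*, a gene of germinal centre B cells, and *Rgs21* had 0 reads in all 6 libraries, which allows up to 3 reads in each library, or at most 0.103 FPKM for *Rgs13* and 0.0432 FPKM for *Rgs21*, for counting error only. The closest tested gene on the low side, *Uchl5*, lies 192 kb away and had a log2 fold change of 0.22 (limma adjusted p = 8.1e-04). On the other side the next tested gene lies 1950 kb away.

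**Figure D4:**
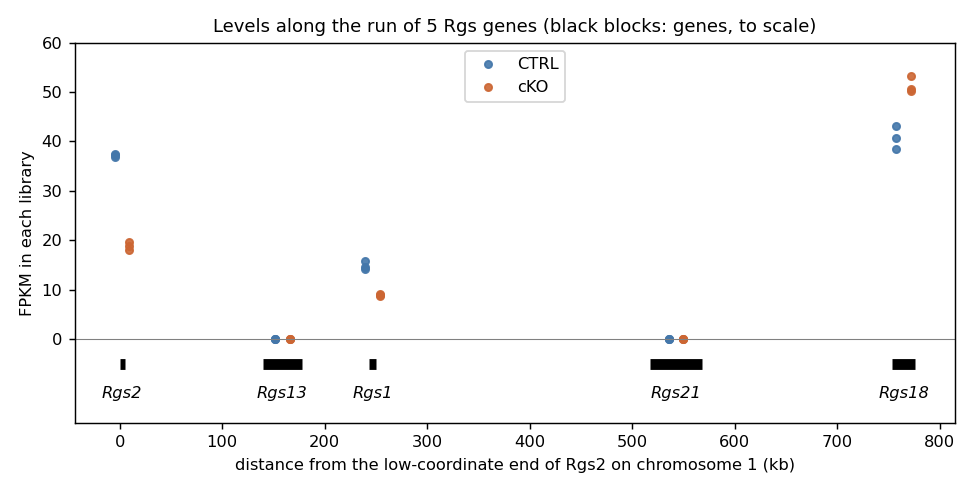
FPKM in each CTRL (blue) and cKO (orange) library (vertical axis) for the 5 Rgs genes in a row on chromosome 1, against the distance in kb from the low end of Rgs2 (horizontal axis); black blocks show the genes to scale. Rgs2 and Rgs1 lie lower in cKO, Rgs18 lies higher, and Rgs13 and Rgs21 lie at 0.

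None of the 12 other *Rgs* genes reached a mean of 1 FPKM, and their highest value in any library was 0.355 FPKM. *Rgs8* had 33 to 63 reads. *Rgs11*, of the R7 subfamily, had 10, 4 and 8 reads in CTRL and 28, 9 and 23 in cKO libraries, and *Rgs9* 3 to 11 reads in any library. *Rgs4* had 1, 1 and 0 reads in CTRL and 6, 4 and 5 in cKO libraries, and was the only one of the 12 without overlap between the groups. In the fit without a filter the limma adjusted p was 0.0255 for *Rgs4* and 0.160 for *Rgs11*, on read numbers too small to give a fold change for *Rgs4*. *Rgs5*, *Rgs6*, *Rgs7*, *Rgs17*, *Rgs20* and *Rgs22* had at most 4 reads in any library.

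The genes that stand around RGS proteins in the pathway were read from the same fit. Of 103 such genes in the table, 72 passed the filter, 30 were called lower and 13 higher, and their median log2 fold change was -0.12. As shares of the tested genes these are 41.7% and 18.1%, to be read against the 20.6% and 19.9% above.

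Among alpha subunits, the direct targets of RGS proteins, 10 of 13 passed the filter and 4 were called lower (median log2 fold change -0.16). *Gnai2*, the main inhibitory alpha subunit of leukocytes, fell from 182 ± 2.85 to 138 ± 2.13 FPKM (log2 fold change -0.40, limma adjusted p = 6.6e-05). *Gnal* (-0.41) and *Gna12* (-0.34) were the other large falls. *Gnai3*, picked after its values were seen, measured 43.9 FPKM in both groups. *Gnaq*, of the class that *Rgs2* prefers, measured 4.65 ± 0.285 and 3.79 ± 0.677 FPKM and did not pass (limma adjusted p = 0.103). Of the same class, *Gna15* measured 34.9 ± 1.31 FPKM in CTRL and 35.3 ± 1.34 FPKM in cKO LSKs (limma adjusted p = 0.762). *Gna11* (5.23 and 4.80 FPKM, limma adjusted p = 0.323) and *Gna14* (3.51 and 4.41 FPKM, limma adjusted p = 0.0519) did not pass either. Of 17 beta and gamma subunits, 10 passed the filter, 3 were called lower and 1 higher. *Gng12* (log2 fold change -0.46), *Gng2* (-0.34) and *Gnb2* (-0.18) fell, and *Gng5* rose by 0.11 on the log2 scale.

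Other proteins that limit receptor signals also split. Of 8 receptor kinases and arrestins, 6 were tested. *Grk2*, the kinase that marks active receptors, fell from 70.6 ± 0.275 to 53.3 ± 1.62 FPKM (log2 fold change -0.40, limma adjusted p = 1.4e-04), and *Grk3* (-0.25) and *Arrb1* (-0.13) fell as well. *Arrb2*, the gene of beta-arrestin 2, rose from 31.9 ± 0.234 to 44.0 ± 0.836 FPKM (log2 fold change 0.45, limma adjusted p = 6.3e-05). Of 9 genes with an RGS-like domain, 7 were tested and 3 fell, *Akap10* (log2 fold change -0.52), *Arhgef11* (-0.34) and *Arhgef1* (-0.13). Of 7 chaperones and inhibitors of alpha subunits, all tested, *Gpsm2* was called, with a log2 fold change of 0.28.

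Of 20 effectors, 12 were tested, 7 fell and 1 rose, with a median log2 fold change of -0.22. *Pik3r6* (log2 fold change -0.77) and *Pik3r5* (-0.41), the adaptors of phosphoinositide 3-kinase gamma, and *Prex1* (-0.62), a Rac activator, fell most. *Adcy6*, an adenylyl cyclase, rose by 0.23 on the log2 scale. Of 29 receptors, 20 were tested, 10 fell and 9 rose. *Cx3cr1* (log2 fold change -1.08), *Ccr2* (-0.999) and *S1pr3* (-0.79) fell most, and *F2rl3* (0.80), a thrombin receptor, *Adora2a* (0.59) and *F2rl2* (0.54) rose most. *Cxcr4*, the receptor that holds HSPCs in the niche, was the 1 tested receptor that was not called, with 85.6 ± 2.93 FPKM in CTRL and 87.4 ± 2.52 FPKM in cKO LSKs (log2 fold change 0.030, limma adjusted p = 0.540).

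**Figure D5:**
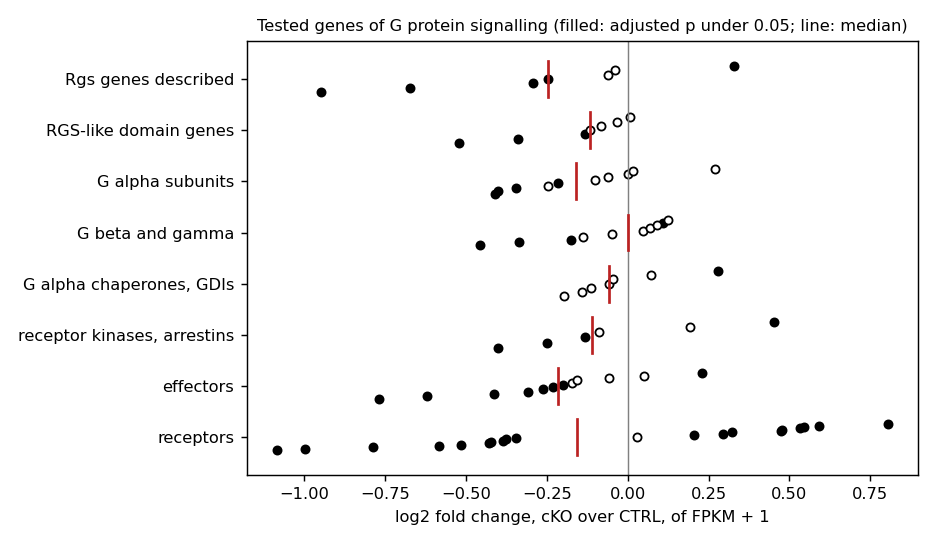
Log2 fold change, cKO over CTRL, of FPKM + 1 (horizontal axis) for the tested genes of each role in G protein signalling (rows), 1 point for each gene, filled for a limma adjusted p under 0.05, with the median as a red line. Receptors spread from -1.08 to 0.80, and 7 of the 12 effectors are filled on the left of 0.

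Markers of other cell types moved beside these genes. Of 9 erythroid markers, 7 passed the filter and all 7 were called higher (summed level 75.9 to 80.2 FPKM in CTRL and 142 to 154 FPKM in cKO libraries), led by *Hbb-bt*, *Hba-a1* and *Hbb-bs*. *Slc4a1* and *Alas2*, markers of late erythroid cells, were at most 0.0823 and 0.108 FPKM. Of 6 mast cell and basophil markers, 5 were called higher (90.3 to 102 FPKM and 149 to 158 FPKM). Of 8 T and NK markers, 4 passed the filter, 3 were called higher and 1 lower (365 to 378 FPKM and 334 to 338 FPKM). Most of that sum was *Nkg7*, which fell from 353 ± 4.87 to 280 ± 2.97 FPKM, whereas *Ccl5*, *Gzmb* and *Klrd1* rose (log2 fold changes 1.73, 1.49 and 0.94). Of 7 B and plasma cell markers, 4 passed, 2 were called higher and 1 lower (63.3 to 69.1 FPKM and 94.6 to 101 FPKM), with *Ms4a1* at most 0.0259 FPKM and *Pax5* at most 0.0372 FPKM. Of the LSK markers, *Procr* and *Flt3* were called higher and *Kit* lower. The part of any of these lists in the RGS results was not tested.

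The genes closest to *Rgs2* in their profile over the 6 libraries, by the root mean square difference of centred log2(FPKM + 1), were *Igsf6* (0.0249), *Scd2* (0.0307) and *Hexa* (0.0411). Those closest to *Rgs18* were *Zfand2b* (0.0206), *Psmc2* (0.0231) and *Nmrk1* (0.0232).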

How the data were processed

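RNA-seq of sorted LSKs, 3 CTRL and 3 cKO libraries, was analysed from the table the authors deposited, which holds FPKM for each library with gene lengths and positions. The submitters' processing notes name HISAT2 2.0.5 and mm10, and the counting program is not given in the sources used here. Of 54532 identifiers, 54409 were in GENCODE M21. Reads were recovered from the product of FPKM and gene length, and 100% of values came out whole within 0.05 reads. Size factors of the deposited values were 1.004 in all libraries, so scaling by the median of ratios was already in the values. Genes averaging 1 FPKM or more were fitted on log2(FPKM + 1) in limma 3.58.1 (lmFit, then eBayes using a mean-variance trend) under R 4.3.3, and the procedure was tested on simulated data. The study names Student's t-test and no model across genes. Intervals and limits from reads cover counting error only. Members and lists were chosen with earlier results of these data known. Named were the members, all *Rgs* genes, *Myh9*, markers, at most 3 called genes of a list in each direction, and the nearest profiles. No protein sequences were used here, and some marker genes are not reported here by name. Alternatives are a pseudocount of 0.1, no filter (genes at 0 throughout left out), a mean of at least 5 FPKM, median of ratios, quantile normalization, a replicate block, eBayes with no trend, each library left out, voom on reads, trends with length and GC content removed, rescaling to 1 sum and, chosen after seeing the data, a 2-fold limit. Other software was Python 3.11.15, pandas 2.3.3, numpy 2.4.6 and matplotlib 3.10.9.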

Additional observations from a re-analysis of the deposited data

How the results depend on the processing

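*Rgs1*, *Rgs2*, *Rgs10* and *Rgs18* kept their direction and their call in all 15 alternatives that could be run for each, with log2 fold changes of -0.73 to -0.59, -0.98 to -0.92, -0.38 to -0.26 and 0.29 to 0.37. *Rgs12* was called in 10 of 14 and lost in 4, with limma adjusted p of 0.00247 to 0.116. *Rgs19* was not called in any of 15 (limma adjusted p of 0.0714 to 0.531). *Rgs14*, not called in any of 15, changed sign without CTRL replicate 1 (log2 fold change 0.0057) and without cKO replicate 2 (0.0089), and leaving out each library in turn gave -0.077 to 0.0089. Leaving out each library in turn gave 3 to 4 members called lower and 1 higher, and 23 to 28 pathway genes lower and 10 to 11 higher. The same fits called 1743 to 2064 of all genes lower and 1791 to 2017 higher, of 11550 to 11566 tested. With a mean of at least 5 FPKM, 16 pathway genes were called lower and 7 higher, as fewer genes are then tested. Over all 7169 genes tested at that limit, 1740 were called lower and 1887 higher. With a change of more than 2-fold added to the adjusted p, 0 members were called lower and 0 higher by limma, where 5 had an unadjusted p under 0.05. CTRL and cKO libraries share replicate numbers. The deviations of same-numbered libraries had correlations of -0.0046, -0.011 and -0.026, so no shared deviation was seen. With 3 libraries in a group this cannot show whether the libraries were matched, and the study used littermate controls. With a replicate block, 3 members were called lower and 1 higher (*Rgs12* adjusted p = 0.0571, limma), and 28 and 12 pathway genes. Scaling moved the median log2 fold change of all genes by less than 0.1, so no shift was subtracted. Genes with few reads, *Rgs16* and most of the other *Rgs* genes, are limited by depth.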
